A study of Canis lupus familiaris with 8 samples.

Results

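CD86, TYROBP and CD79A encode membrane proteins that are normally made by leukocytes, and each was measured by 1 probe on arrays of a cultured canine mammary carcinoma line. The members are every gene probe whose accession maps to 1 of these 3 genes, out of 1458 genes that could be named among 43603 gene probes. They were chosen by their processed signals and detection flags on these same arrays, so their levels and differences are given with errors as a description and without p-values. The series compared 4 groups of 2 arrays, and n = 2 holds for every group value below. Stylo parent is the unsorted CMT-Stylo line, labelled non treated, and Star parent is the unsorted CMT-Star subline, derived from it by stepwise doxorubicin exposure up to resistance at 100 nM and labelled doxorubicin treated, with each sorted group labelled like its parent. Stylo CSC and Star CSC are the cells of each line sorted as cancer stem cells, gated as CD44+, ALDH+ (aldehyde dehydrogenase activity) and CD24-/low. All 4 groups come from 1 line and its 1 subline, and the labels do not say that replicates were separate cultures, so the spread between them may be technical. Each array averages over many cells, so fewer cells carrying a transcript and less transcript per cell cannot be told apart.

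CD86 is a co-stimulatory ligand of antigen-presenting cells: it binds CD28, which aids T cell activation, and CTLA4, which restrains it. TYROBP, also called DAP12, is a small adaptor of myeloid and natural killer cells that pairs with activating receptors lacking their own signalling tail. CD79A is the signalling partner of the B cell antigen receptor and works as a pair with CD79B. TYROBP and CD79A both carry an immunoreceptor tyrosine-based activation motif in the cytoplasm, whose phosphorylated form recruits the kinase SYK. These roles are known mainly from human and mouse.

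The Stylo parent arrays stood apart from the rest, and this touches every comparison with them. Their 75th percentile of signal was 88.6 and 69.5 intensity units, against 297 to 538 on the other 6 arrays. The share of probes well above background, the scanner software's own detection flag, was 46.7% and 47.4% there and 55.5% to 60.6% elsewhere. Levels below are scaled, as log2 of the processed signal minus log2 of that array's 75th percentile, so a spot at background on a Stylo parent array gets a higher scaled level than one at background elsewhere. Over the 14750 probes that were never well above background, the median scaled difference was -1.58 for Stylo CSC minus Stylo parent, -1.60 for Star parent minus Stylo parent, -0.45 for Star CSC minus Star parent and -0.45 for Star CSC minus Stylo CSC. Each slide held 1 line, so a difference between lines and one between slides cannot be told apart, whereas each sorted group lay on the same slide as its parent.

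**Figure D1:**
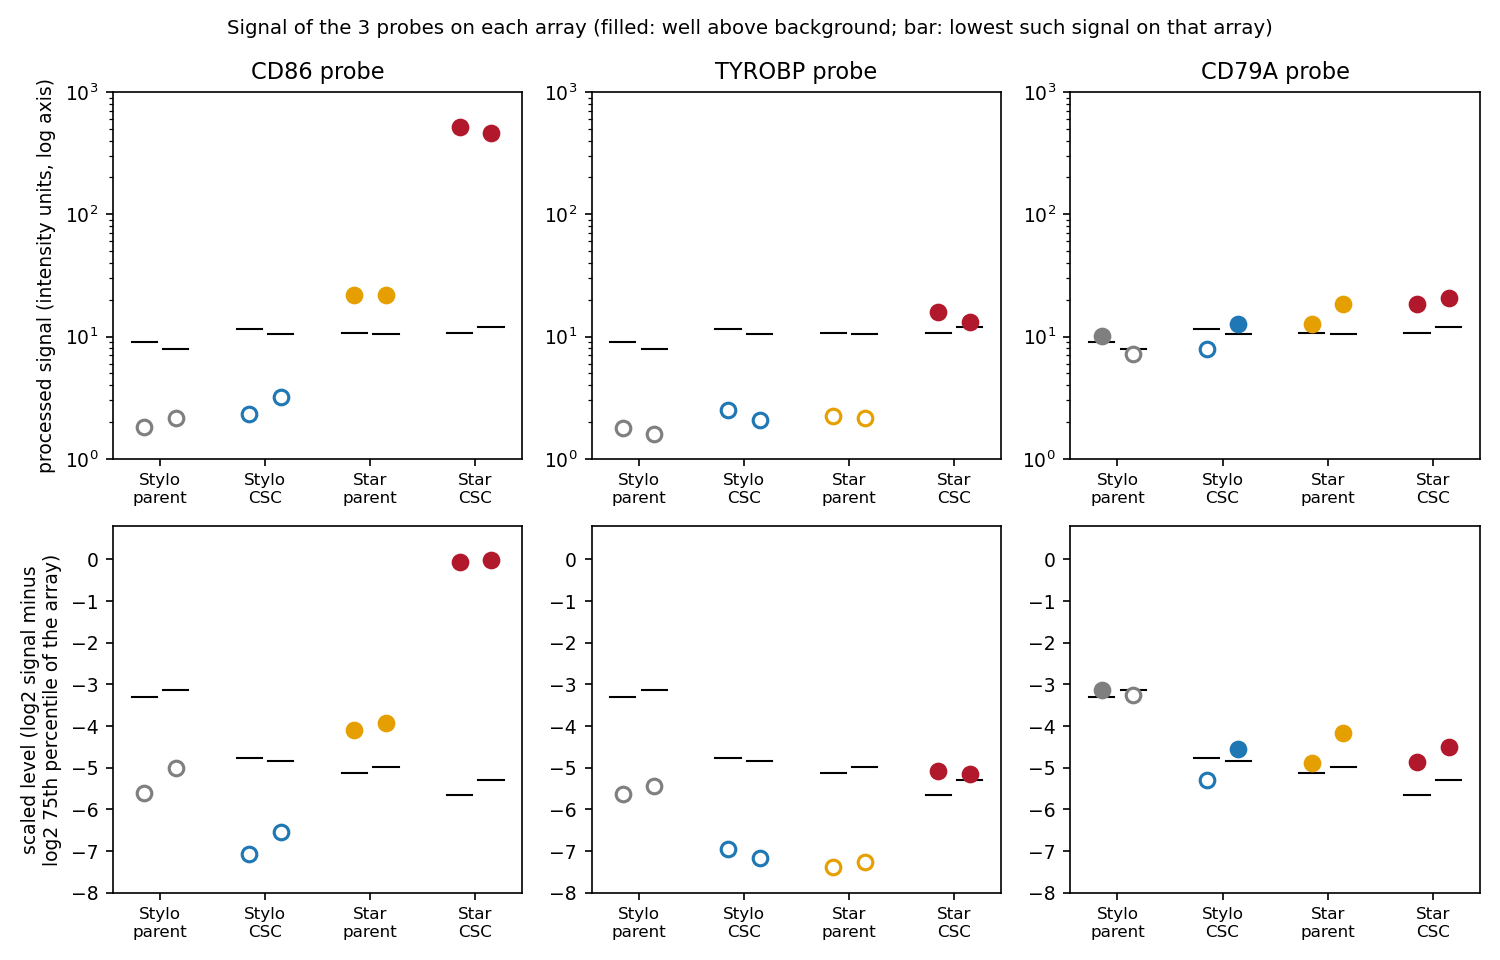
Processed signal (upper row, log axis, intensity units) and scaled level (lower row, log2) of the CD86, TYROBP and CD79A probes on each of the 8 arrays, with filled circles for spots well above background and a black bar for the lowest signal well above background on that array. The Star CSC arrays lie at 514 and 461 for CD86, TYROBP rises above the bars on the Star CSC arrays alone, and CD79A stays near the bars throughout.

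CD86 was high in the sorted resistant cells, low but detected in the unsorted resistant line, and not detected in either sensitive group. Its processed signal was 514 and 461 on the Star CSC arrays and 21.8 and 21.8 on the Star parent arrays. On the Stylo arrays it was 1.82 and 2.16 in Stylo parent and 2.32 and 3.20 in Stylo CSC. The 4 Star signals were well above background and the 4 Stylo signals were not, and no Star signal overlapped a Stylo signal. The scanner software's error was 51.5 and 46.2 units on the Star CSC arrays and 3.16 and 3.11 on the Star parent arrays. These signals were 6.91 to 9.99 times their own error, whereas the Stylo signals were close to theirs. Of all 43603 probes, 2.13% showed the same detection pattern, well above background on all 4 Star arrays and on no Stylo array. Both arrays were well above background for 57.0% of probes in Star parent, 56.7% in Star CSC, 54.4% in Stylo CSC and 44.9% in Stylo parent.

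On the scaled log2 level, CD86 stood at -0.04 ± 0.04 (SD) in Star CSC and -4.01 ± 0.12 in Star parent. The difference was 3.97 ± 0.25 (SE of the fit over all arrays), a 15.7-fold higher level in Star CSC, and the arrays of these groups did not overlap. In the same comparison 29.9% of the tested probes had both Star CSC arrays above both Star parent arrays, so CD86 shared this order with many probes. Normexp background correction, which adds an offset and so compresses low signals, gave 2.29 for this difference, and the other settings gave up to 4.31. Without any 1 array it lay between 3.89 and 4.06. Against Stylo CSC, where the probe was only at background, CD86 in Star CSC was at least 27.2-fold higher. That bound holds for the main processing, and with normexp the log2 difference was 2.80, which is smaller than the bound's 4.76. Here 38.9% of tested probes had both Star CSC arrays above both Stylo CSC arrays, and 39.4% had both Star parent arrays above both Stylo parent arrays. No fold is given for Star parent against Stylo parent, because the Star parent level was below the lowest scaled level that counted as well above background on the dim Stylo parent arrays. None is given for the sort in the Stylo line either, since both of its groups were at background. For the same reason the effect of sorting on CD86 could not be compared between the lines.

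TYROBP was detected in the sorted resistant cells and in no other group, at a signal just over the detection limit. Its processed signal was 15.9 and 13.2 on the Star CSC arrays, where the lowest signals well above background were 10.6 and 11.9. On the other 6 arrays it lay between 1.61 and 2.51, close to the software's own error, at 1.00 to 1.08 times that error. The Star CSC signals therefore did not overlap those of any other group. This pattern, well above background on both Star CSC arrays and on no other, was shared by 287 probes, or 0.658% of all. The scaled level was -5.11 ± 0.04 in Star CSC, -7.32 ± 0.08 in Star parent, -7.06 ± 0.15 in Stylo CSC and -5.53 ± 0.13 in Stylo parent. No fold is given for any comparison of TYROBP, because the Star CSC level did not clear the lowest detectable level of the other groups and those groups were at background. The rank of Stylo parent next to Star CSC on the scaled level belongs to background spots on dim arrays, where the unscaled signals were the lowest of all, at 1.79 and 1.61.

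CD79A was detected weakly in both lines, and its order between groups depended on the scaling. The processed signal was 18.5 and 20.6 in Star CSC and 12.6 and 18.6 in Star parent, with all 4 arrays well above background. In the Stylo line it was 7.87 and 12.7 in Stylo CSC and 10.1 and 7.26 in Stylo parent, with 1 of 2 arrays of each group well above background. The share of all probes with this pattern was not counted. Both arrays were well above background for 57.0% of probes in Star parent and 56.7% in Star CSC. On all 8 arrays, a stricter pattern that CD79A did not meet, the share was 42.1%. Unscaled, each of the 4 Star signals was higher than both Stylo parent signals, and the Star groups overlapped each other. Both Star CSC signals were also higher than both Stylo CSC signals, whereas Star parent overlapped Stylo CSC. Probes never well above background were higher on the Star arrays too. Their median unscaled log2 difference was 0.56 for Star parent minus Stylo parent and 0.27 for Star CSC minus Stylo CSC. The share of all probes with the unscaled order of CD79A was not counted, so this order is not read as a result about CD79A.

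On the scaled level the order turned round, with Stylo parent highest at -3.19 ± 0.09, then Star parent at -4.52 ± 0.51, Star CSC at -4.68 ± 0.26 and Stylo CSC at -4.93 ± 0.54. The lower 3 groups overlapped one another. CD79A differed by -1.73 ± 0.34 (SE) between Stylo CSC and Stylo parent and by -1.33 ± 0.34 between Star parent and Stylo parent, which lies close to the medians of -1.58 and -1.60 over the probes never well above background. With cyclic loess these differences were -0.87 and -0.79. Groups not overlapping in this downward direction were found for 50.6% of tested probes in the former comparison and 47.8% in the latter. Between Star CSC and Star parent the difference was -0.16 ± 0.34, and between Star CSC and Stylo CSC it was 0.25 ± 0.34, turning to -0.32 with normexp. Neither is larger than the spread between replicates.

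The 3 genes did not follow 1 pattern. CD86 and TYROBP were both highest in Star CSC, yet CD86 was also detected in Star parent, where TYROBP was at background. CD79A was detected on 6 of 8 arrays, with no rise in Star CSC on the scaled level. With the more lenient flag for a positive and significant signal, CD86 was detected on 6 arrays in place of 4, TYROBP on 3 in place of 2 and CD79A on 8 in place of 6. Across the 8 arrays the Pearson correlation of scaled levels was 0.61 for CD86 with TYROBP, 0.39 for TYROBP with CD79A and -0.15 for CD86 with CD79A. These correlations describe 8 arrays that fall into 4 groups and share their scaling.

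The other genes of these pathways were taken from lists of co-stimulation and antigen presentation, adaptor signalling, the B cell receptor, and leukocyte identity. Few of them have a probe named here, and PTPRC, CD79B, SYK, PTPN6 and CD74 are not among those. The receptors of CD86 were near background: CTLA4 was at background on every array, and CD28 was well above it on 1, a Stylo CSC array with a signal of 13.5. CD80, the other ligand of these receptors, stayed at background on all 8 arrays. For TYROBP, all 3 named genes of the adaptor list were at background on every array: FCER1G, an adaptor of the same type, and the natural killer receptors KLRD1 and NCR1. For CD79A, none of the 3 named genes of the B cell list was well above background on any array: MS4A1, the B cell surface protein CD20, with CD38 and BCL6. The BCL6 signals came near the detection limit, at 12.6 and 6.74 in Star CSC and 11.3 and 13.9 in Star parent. They were 10.9 and 12.3 in Stylo CSC and 6.60 and 2.66 in Stylo parent. Several were thus as high as CD79A signals that carried the flag.

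**Figure D2:**
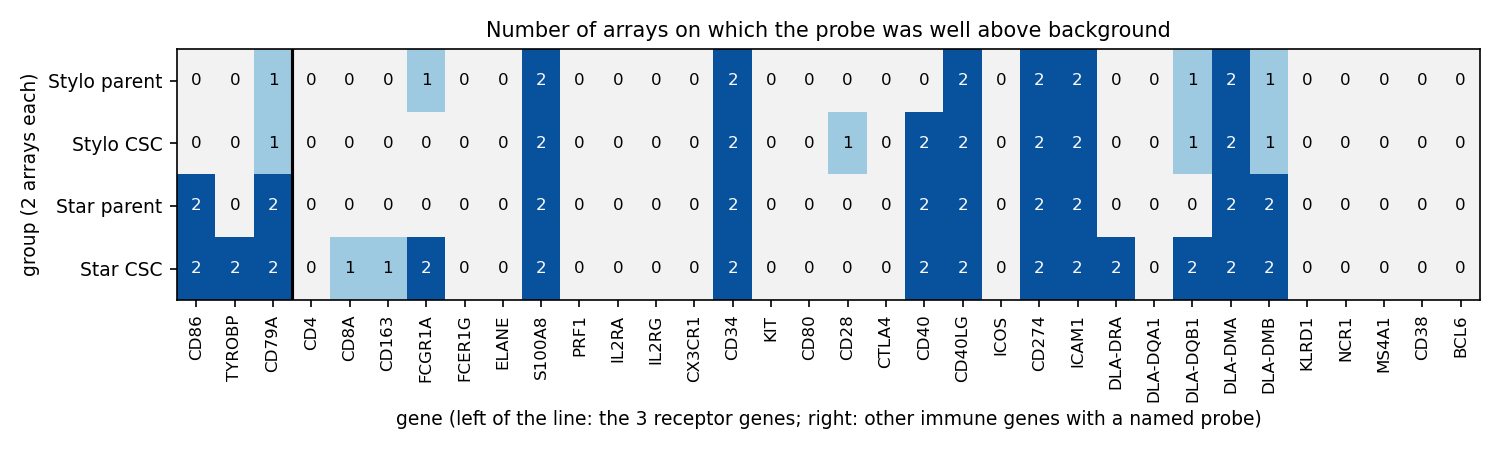
Number of arrays, out of 2 per group, on which the probe of each gene was well above background, with CD86, TYROBP and CD79A left of the line and 31 other immune genes with a named probe to the right. Most of the leukocyte genes are at 0 in every group, while CD40LG, CD274, ICAM1, DLA-DMA, S100A8 and CD34 are at 2 throughout.

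The antigen presentation genes were detected unevenly. DLA-DMA and DLA-DMB encode the chaperone that loads peptide onto MHC class II, and DLA-DRA, DLA-DQA1 and DLA-DQB1 encode class II chains themselves. DLA-DQA1 was at background on all 8 arrays (signal 2.61 to 7.15), and DLA-DRA was well above background in Star CSC alone, at 16.8 and 14.7. DLA-DMA gave a signal of 313 and 297 in Star CSC, 122 and 119 in Star parent, 53.5 and 60.7 in Stylo CSC and 25.2 and 15.8 in Stylo parent. DLA-DQB1 gave 62.3 and 57.5 in Star CSC and 9.19 and 8.16 in Star parent, where it was at background.

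Of 8 tested genes of the co-stimulation and antigen presentation list, 1 rose in Star CSC over Star parent and none fell (list median 0.60, against -0.10 over all tested probes; 3.21% of all tested probes were called higher and 6.48% lower). A call needed a limma adjusted p under 0.05 and a change of at least 2-fold. The riser was DLA-DQB1, at least 3.98-fold (adjusted p = 0.00211), a call lost with normexp at 0.27. DLA-DMA stood at 0.83 ± 0.15 (adjusted p = 0.0131), short of the fold limit but called at 1.06 with median scaling. Normexp turned the list median to -0.35.

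Between the sorted groups, 5 of the 8 genes were higher in Star CSC than in Stylo CSC and none was lower (list median 1.37, against -0.10; 12.6% of tested probes called higher and 16.8% lower, 29.4% in all). They were CD40LG, DLA-DMB, DLA-DQB1, DLA-DMA and DLA-DRA. CD40LG, the CD40 ligand of activated T cells, rose by 2.26 ± 0.12 (adjusted p = 7.11e-05) and DLA-DMA by 1.70 ± 0.15 (adjusted p = 0.000389). DLA-DRA was too close to background in this comparison for a fold. With normexp 1 gene of the list was called higher (CD40LG, 1.27).

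In Star parent over Stylo parent, 2 of the 8 rose and 2 fell (list median -0.10, against -0.20; 24.6% of tested probes called higher and 31.9% lower, 56.6% in all). CD40LG rose by 2.78 ± 0.12 (adjusted p = 8.03e-06; 0.40 and not called with normexp), and ICAM1, an adhesion ligand of leukocyte integrins, by 1.36 ± 0.11 (adjusted p = 7.16e-05). On the scaled level CD274, the checkpoint ligand PD-L1 (-1.55 ± 0.13), and DLA-DQB1 fell. Unscaled, CD274 was higher in Star parent (25.8 and 21.3) than in Stylo parent (15.8 and 14.9), and DLA-DQB1 overlapped (9.19 and 8.16 against 8.19 and 10.4). The median over the probes never well above background was -1.60 here on the scaled level and 0.56 unscaled. In Stylo CSC over Stylo parent, 1 rose and 3 fell (list median -0.48, against -0.28; 21.9% called higher and 32.1% lower). The riser was CD40, at least 1.21-fold, which turned to -1.49 with normexp. Its call was lost without Stylo CSC array 2 (1.06), without Stylo parent array 1 (0.75) and with only the compared arrays in the fit (1.33). On the scaled level CD274 (-1.75 ± 0.13), DLA-DQB1 (-1.73 ± 0.22) and DLA-DMB (-1.61 ± 0.36) fell, against a median of -1.58 over the probes never well above background. Unscaled, CD274 was higher in Stylo CSC (17.4 and 18.2 against 15.8 and 14.9), DLA-DQB1 was also higher (10.8 and 10.9 against 8.19 and 10.4), and DLA-DMB overlapped (8.20 and 15.6 against 12.3 and 6.41). The unscaled median over the probes never well above background was itself 0.38 on the log2 scale, so these small rises are not read as higher expression. The other CD274 probe was called in neither comparison. With normexp the counts were 1 higher and 5 lower between the parents and 1 higher and 7 lower in the Stylo sort. On the scaled level, the change on sorting differed between the lines for 5 genes of the list in the upward direction of Star and for 1 in the other. It did so for 20 of all 26 tested list genes (12 and 8), where 52.1% of tested probes met the same call (28.2% and 23.9%). The median of this difference over the probes never well above background was 1.15. The 4 comparisons share arrays with one another, so these counts are not independent.

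On the scaled level, the summed signal of leukocyte markers did not rise with CD86 and TYROBP, but this sum depends on the scaling. Both arrays were well above background for 3 named markers in Star CSC and for 2 in each other group. Of 50 listed genes, 13 have a named probe, and 8 of these stayed at background on all arrays: CD4, FCER1G, ELANE, PRF1, IL2RA, IL2RG, CX3CR1 and KIT. S100A8 and CD34 were well above background on all 8 arrays, and FCGR1A, an Fc receptor of myeloid cells, on both Star CSC arrays (signal 13.3 and 13.5) and 1 Stylo parent array. CD8A was well above background on 1 Star CSC array (signal 13.8) and on no other. CD163, a macrophage scavenger receptor, gave 15.6 and 11.3 in Star CSC and 11.6 and 12.2 in Star parent, against 1.87 to 2.82 on the 4 Stylo arrays, and only the 15.6 was well above background. The CD163 signals thus split by line as those of CD86 did, near the detection limit, and the part of such cells in the CD86 result was not tested.

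The summed scaled signal of the 12 markers measured on every array, as a percentage of the 75th percentile, was lowest in Star CSC (107% to 111%). It was 171% to 179% in Star parent, 181% in both Stylo CSC arrays and 437% to 487% in Stylo parent. S100A8 and CD34 made up most of each sum, together giving 93.0% to 93.7% of the 75th percentile in Star CSC and 387% to 439% in Stylo parent. The other 10 markers were summed apart after these values were seen. They gave 14.2% to 17.6% in Star CSC, 16.3% to 21.1% in Star parent, 15.1% to 15.8% in Stylo CSC and 47.4% to 49.1% in Stylo parent. On this scale Star CSC overlapped the other groups except Stylo parent. Most of these markers were at background, so their scaled sum depends on the 75th percentile, which was highest in Star CSC (538 and 465). The sum cannot show whether leukocyte transcripts differed, and the unscaled signals were not summed. Among these 10 markers, FCGR1A, KIT and ELANE had higher unscaled signals in Star CSC than in Star parent. IL2RG was lower and the rest overlapped. Only FCGR1A was well above background on both Star CSC arrays. Of the 3 tested markers none was called higher in Star CSC over Star parent. Unscaled, FCGR1A was higher in Star CSC (13.3 and 13.5 against 8.73 and 8.82, at background in Star parent). S100A8 was also higher unscaled (324 and 280 against 267 and 237), and CD34 was lower (176 and 156 against 308 and 288). CD34, a marker of blood progenitors and vessels, fell by 1.36 ± 0.14 on the log2 scale (adjusted p = 0.00269), although its other probe was called higher. In Stylo CSC over Stylo parent, where 32.1% of tested probes were called lower and the median over the probes never well above background was -1.58, all 3 fell on the scaled level, among them CD34 (-1.63 ± 0.14) and S100A8, a calcium-binding protein of neutrophils and keratinised epithelium (-1.27 ± 0.09; -0.83 with median scaling and -0.21 with normexp, neither called). Unscaled, both were higher in Stylo CSC, with CD34 at 60.9 and 57.7 against 46.6 and 48.1 and S100A8 at 452 and 435 against 297 and 257. The unscaled median over the probes never well above background was 0.38 on the log2 scale there.

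The labelled carcinoma identity was checked with epithelial and fibroblast genes. Of 9 named epithelial genes, 5 were well above background on both arrays in Stylo parent, 6 in Stylo CSC, 6 in Star parent and 8 in Star CSC. KRT14, KRT15, TJP1 and JUP were detected on all 8 arrays, whereas CDH1, the epithelial cadherin, and MUC1, KRT19 and OCLN were at background in Stylo parent. All 6 named fibroblast genes, which include VIM and COL1A2, were detected on all 8 arrays. In Star CSC over Star parent, where CD86 and TYROBP were higher, the keratins KRT15 (2.27 ± 0.13, adjusted p = 0.000503) and KRT19 (2.34 ± 0.48, adjusted p = 0.0176) rose. The KRT19 call was lost with normexp (0.26), without either Star CSC array (2.37 and 2.31) and without Star parent array 1 (1.83). No fibroblast gene was called in that comparison, in which 9.69% of all tested probes were called. In Stylo CSC over Stylo parent, where neither CD86 nor TYROBP was detected, 4 of the 9 epithelial genes rose on the scaled level and 3 fell. Of the 6 fibroblast genes 4 rose and 1 fell (54.0% of tested probes called). Among the genes that fell was CLDN3 (-2.27 ± 0.21, adjusted p = 0.000156), well above background on both arrays of each Stylo group. Its unscaled signals overlapped (41.4 and 39.9 in Stylo CSC against 61.9 and 41.0). KRT19 (-1.96), MUC1 (-1.47) and OCLN (-2.45) were at background in both Stylo groups. The median over the probes never well above background was -1.58 here on the scaled level and 0.38 unscaled. The fibroblast gene that fell was PDGFRB (-1.09, and -0.65 with median scaling). Unscaled, PDGFRB was higher in Stylo CSC (83.0 and 126 against 74.1 and 42.5).

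**Figure D3:**
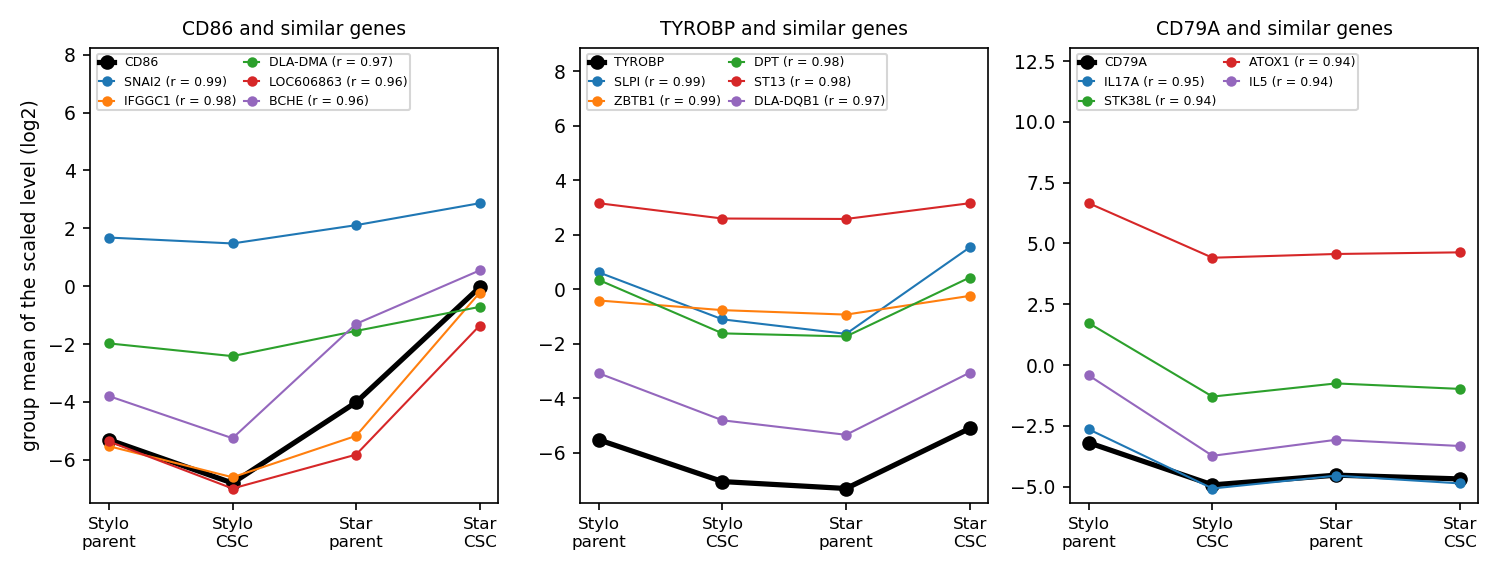
Group means of the scaled log2 level of CD86, TYROBP and CD79A (thick black lines) and of named genes most correlated with each over the 8 arrays, 5 for CD86 and TYROBP and 4 for CD79A (thin lines, Pearson r in the key). CD86 and its similar genes peak in Star CSC, while the curves for TYROBP and CD79A are also high in Stylo parent, where the TYROBP probe was at background.

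Among 975 named genes detected in at least 1 group, those most like CD86 over the 8 arrays were SNAI2, a transcriptional repressor of epithelial genes (r = 0.99), IFGGC1 (r = 0.98), DLA-DMA (r = 0.97), LOC606863 (r = 0.96) and the cholinesterase BCHE (r = 0.96). SNAI2 stood at 2.87 in Star CSC and 2.11 in Star parent, a far smaller step than that of CD86. IFGGC1 and LOC606863 were well above background only in Star CSC, and BCHE only in the Star groups. In all, 25 genes had r over 0.9 with CD86.

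For TYROBP the most similar genes were the protease inhibitor SLPI (r = 0.99), the zinc finger gene ZBTB1 (r = 0.99), the matrix protein DPT (r = 0.98), the chaperone cofactor ST13 (r = 0.98) and DLA-DQB1 (r = 0.97). All of these but DLA-DQB1 were detected on all 8 arrays, whereas 6 of the 8 TYROBP values were at background, so the likeness rests partly on the order of background values. For CD79A those given here were the cytokine IL17A (r = 0.95), the kinase STK38L, the copper chaperone ATOX1 and the cytokine IL5 (r = 0.94 each). All 4 of these had their highest scaled level in Stylo parent. The correlations describe 8 arrays in 4 groups with a shared scaling, and nothing more is drawn from them.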

How the data were processed

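RNA from 8 samples was hybridised to 1-colour Cy3 arrays. The authors deposited scanner files with a processed signal intensity, its error and detection flags for each spot, written by Feature Extraction 11.5.1.1, as per the file headers. The deposited matrix holds log2 values, which equal the log2 processed signal less the 75th percentile after removal of a constant per probe. Its scale and direction matched the scanner files, and its centring is not stated in the sources used here.

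Control and outlier spots were left out, spots of a probe were averaged on the log2 scale, and the 75th percentile of each array was subtracted. No probe was saturated. Accessions were matched without version to RefSeq's gene table (UU_Cfam_GSD_1.0, names only), which named 2353 probes (5.4%). A gene with several probes is represented by whichever tested probe had the highest mean. A probe was tested if it was detected in both replicates of any group and measured on all 8 arrays (26737 probes). limma 3.58.1 in R 4.3.3 fitted 4 group means (lmFit, eBayes, two-sided, Benjamini-Hochberg adjustment). A fold against a group at background is a bound: the mean of the bright group is set against the lowest level well above background on each dim array, or against the probe's own level where that is higher. The number of arrays limits the precision. The fit was tested on simulated data.

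The members and gene lists were chosen with earlier results of these data known. Genes named from the lists were the 4 largest rises and falls called in each comparison and a fixed set. Epithelial and fibroblast genes picked by this rule are mostly given as counts. Sequences of the probes, promoters and proteins were not used here. A gene among those most like CD79A is not reported here.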

Additional observations from a re-analysis of the deposited data

Results flagged for a closer look

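On the scaled level, the change on sorting differed between the lines for 13 list genes. These were well above background on at least 1 array of each of the 4 groups. DLA-DMB was so on 1 of 2 arrays in each Stylo group, and CLDN3 on 1 of 2 in each Star group. The difference itself was tested in the limma fit with Benjamini-Hochberg adjustment. The same call was met by 52.1% of all tested probes. Over the probes never well above background, the median difference was 1.15 on the scaled level and -0.29 unscaled. The scaling thus raised every difference given here. Given as the Star change minus the Stylo change on the log2 scale, the difference was 1.75 ± 0.18 (SE) for CD274 (adjusted p = 0.000358), 1.27 ± 0.22 for DLA-DMA (adjusted p = 0.00312), 2.35 ± 0.51 for DLA-DMB, -1.55 ± 0.15 for ICAM1 and 1.02 ± 0.13 for S100A8 (adjusted p = 0.000956; 0.01 with normexp). Among epithelial genes it was 1.2 ± 0.18 for KRT15, 1.86 ± 0.30 for CLDN3, -1.47 ± 0.18 for TJP1 and -2.91 ± 0.23 for JUP. Among fibroblast genes it was -3.26 ± 0.17 for COL1A1, -3.43 ± 0.32 for COL1A2, -1.52 ± 0.14 for DCN and -3.11 ± 0.19 for THY1, whose other probe was called in the opposite direction. Unscaled, the signals of CD274, DLA-DMA, S100A8 and KRT15 were higher after sorting in both lines. For DLA-DMA they were 313 and 297 against 122 and 119 in Star. In Stylo they were 53.5 and 60.7 against 25.2 and 15.8. DLA-DMB was higher in Star and overlapped in Stylo, and CLDN3 overlapped in both. The differences of these genes therefore depend on the scaling, and no unscaled difference was fitted. The difference for CD79A was 1.58 ± 0.48, given without a test. CD86 and TYROBP have no such value, because both were at background in the Stylo line.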

How the results depend on the processing

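Signals near background limit every value for TYROBP and CD79A. The rise of CD86 in Star CSC over Star parent (3.97) kept its direction under every setting tried, at 4.20 with median scaling, 4.31 with cyclic loess and 2.29 with normexp background correction, and 3.89 to 4.06 without any 1 array. Its difference between the sorted groups was 6.76, measured against background values, with 6.42 under quantile normalization, 2.80 with normexp and 6.50 to 7.03 without any 1 array. For CD79A, the difference between Stylo CSC and Stylo parent was -1.07 with quantile normalization, -1.29 with median scaling, -0.87 with cyclic loess and -2.11 to -1.35 without any 1 array. The difference between the parents was -0.93, -0.92 and -0.79 in the same order, -1.76 with normexp and -1.69 to -0.97 without any 1 array. Between the sorted groups CD79A reversed to -0.32 with normexp and lay between -0.13 and 0.63 without any 1 array, and from -0.52 to 0.21 in the Star sort. Its difference in sorting effect was 1.08 with cyclic loess and 1.2 to 1.96 without any 1 array. CDH1 in the Stylo sort reversed to -0.09 with normexp. The cause of these changes was not tested.

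In the Star sort 2590 probes and 4 list genes were called (normexp 1132 and 2; no fold limit 7891 and 10; list genes well above background on all arrays compared, 2; without any 1 array 2161 to 2972 and 3 to 5). In the Stylo sort 14445 and 19 were called (no filter on dim probes 28599, and 34 of 45 list genes in place of 26; the stricter filter, 12 list genes; without any 1 array 13796 to 14553 and 17 to 20). Between the parents 15120 and 18 were called (no filter 26680, and 31 of 45; without any 1 array 14707 to 15204 and 17 to 19). Between the sorted groups 7866 and 19 were called (normexp 3997 and 11; no fold limit 15223; the stricter filter, 12 list genes; without any 1 array 7051 to 8027 and 18 to 19). For the difference in sorting effect 13938 and 20 were called (no filter 21938; the stricter filter, 12 list genes; without any 1 array 13043 to 13814 and 19 to 20).

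Median scaling moved the median of all tested probes by 0.23, 0.44, 0.41 and 0.20 in the Star sort, the Stylo sort, the parents and the sorted groups. It turned the split of higher to lower calls from 858 and 1732 to 1598 and 1121, from 5858 and 8587 to 8162 and 6049, from 6585 and 8535 to 8642 and 6500, and from 3374 and 4492 to 4455 and 3490. Same-numbered arrays did not deviate together (correlations from -0.0683 to 0.0729), so the numbers were not taken as pairs. With the replicate block 2507, 14421, 15101, 7838 and 13890 probes were called in the 5 comparisons in the order above. A slide block could not be fitted between the lines, and each sort lay within 1 slide.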
